A study of Mus musculus with 12 samples.

Results

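Immediate early genes are genes whose transcription starts within minutes of a stimulus without new protein synthesis. The 10 described here are Fos, Fosb, Junb, Egr1, Egr2, Npas4, Nr4a1, Arc, Ier2 and Dusp1. They were chosen by name, as every probe whose gene name in the scanner files is one of these symbols. That gave 14 probes of the 56568 analysed, and 10 gene names of 37306. Each gene had at least 1 probe well above background on all 12 arrays, so all 10 entered every comparison. Values are log2 intensity minus the 75th percentile of the array, so a level of 0 is that percentile, and a difference of 1 is a fold of 2 in intensity. Levels are compared between arrays for 1 gene and not between genes, since each probe has its own brightness.

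In neurons, synaptic activity and calcium entry activate kinases that phosphorylate CREB, SRF partners and related factors already bound at the promoters of these genes, and growth factors and stress hormones reach many of the same promoters. Most of the 10 encode transcription factors, and their mRNAs are short-lived, so their level at the time of death reports the preceding minutes to an hour. In brain they are widely used as markers of recently active neurons, and handling or a new environment can raise them.

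The study compared mice that lack both presenilins in cholinergic neurons with controls. DKO mice carry ChatCre, PS1 flox/flox and PS2-/-, and Con mice are Cre-negative with PS1 flox/flox and PS2+/-. Both genotypes therefore share the floxed PS1 alleles, and both have at least 1 PS2 allele missing. All mice are labelled 2 months old and male, were killed by cervical dislocation, and gave snap-frozen basal forebrain and cerebral cortex. Each genotype has 3 mice, numbered 1 to 3, and each mouse gave 1 array per region. Because Chat drives the recombinase, PS1 is removed only in cells that express or once expressed Chat, whereas PS2 is missing in every cell of a DKO mouse. The tissue was measured in bulk, so fewer cells of a type and less RNA per cell cannot be told apart in any result below.

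The labels were checked first. Psen2 read -1.86, -1.44 and -1.25 in DKO basal forebrain against 0.39, 0.25 and 0.42 in Con, and -1.70, -1.59 and -1.67 in DKO cortex against 0.42, 0.50 and 0.47 in Con. The difference was -1.87 in basal forebrain (limma adjusted p = 0.0334) and -2.12 in cortex (limma adjusted p = 3.27e-04). Markers of cholinergic, striatal and septal cells were higher in basal forebrain than in cortex for 6 of 6 genes each, in both genotypes. The share of probes well above background was 68.9% or more, and arrays of a group correlated at 0.985 to 0.995. The sex recorded for DKO mice 1 and 3 did not match their arrays. These read Xist (-1.89 and -1.53 in basal forebrain) and had no Y-linked gene above background. DKO mouse 2 and all Con mice read the Y-linked genes Ddx3y, Eif2s3y and Uty above background, and not Xist. Sex by these genes is therefore mixed with genotype. Some counts without DKO mice 1 and 3 are given below. The arrays were on 2 slides. Slide 1 held the 6 basal forebrain arrays together with DKO cortex 1 and 2, and slide 2 held DKO cortex 3 together with the 3 Con cortex arrays. In Con mice region and slide cannot be told apart.

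The promoters of the genes are shown because 1 short element, TGACG, was found in every window shown. RefSeq start sites gave a window for 7 of the 10 genes, and each line below holds the 250 bases upstream of the start in build GRCm38.p6, 5′ to 3′ on the strand of the gene. Capitals mark every match to 5 motifs searched on both strands. They are TGACG (the one-sided cAMP response element bound by CREB), TGACGTCA (its full palindrome, which contains TGACG on either strand and counts for both), the CArG box bound by SRF, TGANTCA (the AP-1 site) and TATAAA.
Fos (chr12:85473640-85473889, + strand): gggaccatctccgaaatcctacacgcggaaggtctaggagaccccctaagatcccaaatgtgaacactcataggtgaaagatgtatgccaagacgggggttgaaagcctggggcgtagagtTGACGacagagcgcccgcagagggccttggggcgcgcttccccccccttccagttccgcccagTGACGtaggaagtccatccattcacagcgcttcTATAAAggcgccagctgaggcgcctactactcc
Fosb (chr7:19310046-19310295, - strand): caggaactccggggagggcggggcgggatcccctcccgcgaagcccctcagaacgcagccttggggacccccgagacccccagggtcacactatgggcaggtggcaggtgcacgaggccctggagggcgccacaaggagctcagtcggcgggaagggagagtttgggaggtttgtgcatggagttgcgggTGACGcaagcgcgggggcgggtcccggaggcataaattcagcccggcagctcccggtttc
Junb (chr8:84978749-84978998, - strand): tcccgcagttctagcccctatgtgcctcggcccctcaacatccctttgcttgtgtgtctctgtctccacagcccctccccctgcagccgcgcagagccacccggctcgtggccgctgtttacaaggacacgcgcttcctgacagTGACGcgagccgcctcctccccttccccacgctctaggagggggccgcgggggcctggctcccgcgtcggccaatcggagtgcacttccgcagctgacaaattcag
Egr2 (chr10:67537619-67537868, + strand): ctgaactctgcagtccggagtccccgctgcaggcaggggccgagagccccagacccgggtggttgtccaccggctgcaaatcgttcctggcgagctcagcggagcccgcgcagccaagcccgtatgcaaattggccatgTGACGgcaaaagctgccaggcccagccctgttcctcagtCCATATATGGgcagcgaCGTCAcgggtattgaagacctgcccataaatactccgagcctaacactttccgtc
Npas4 (chr19:4989972-4990221, - strand): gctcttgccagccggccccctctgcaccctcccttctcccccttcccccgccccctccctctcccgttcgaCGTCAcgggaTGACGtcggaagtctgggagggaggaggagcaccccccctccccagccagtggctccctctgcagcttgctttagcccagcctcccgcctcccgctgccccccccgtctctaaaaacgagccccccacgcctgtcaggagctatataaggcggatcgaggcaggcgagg
Nr4a1 (chr15:101266596-101266845, + strand): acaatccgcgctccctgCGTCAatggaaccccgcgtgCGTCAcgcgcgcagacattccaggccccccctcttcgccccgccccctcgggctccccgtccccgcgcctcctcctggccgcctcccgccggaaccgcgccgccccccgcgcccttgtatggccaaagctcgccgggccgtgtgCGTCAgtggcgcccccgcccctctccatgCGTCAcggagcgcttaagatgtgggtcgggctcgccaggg
Dusp1 (chr17:26508473-26508722, - strand): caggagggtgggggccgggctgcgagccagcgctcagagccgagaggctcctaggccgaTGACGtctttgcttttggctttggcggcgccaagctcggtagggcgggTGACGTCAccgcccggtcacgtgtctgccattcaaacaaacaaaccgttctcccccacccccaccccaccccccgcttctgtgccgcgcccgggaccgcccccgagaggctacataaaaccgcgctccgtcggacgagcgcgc

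All 7 windows shown held TGACG on 1 strand or the other. Of 32851 such windows of all genes 17.8% held it, a share that does not apply to Egr2, for the reason given below. Nr4a1 held 4 copies, which appear above as CGTCA because they lie on the other strand. Dusp1 held 3, of which a pair makes the palindrome TGACGTCA 143 bases upstream. Fos, Egr2 and Npas4 held 2 each. In Fos the copies lay 129 and 66 bases upstream. Fosb and Junb held 1 each, 60 and 106 bases upstream. The palindrome was found in 1 of the 7 windows, against 1.55% of all windows. The CArG box was found in 1, Egr2, and in 1.47% of all windows. TATAAA was found in 1, Fos, against 12.4%, and TGANTCA in 0 against 6.75%. Egr2 has 5 RefSeq windows, and the 1 shown was picked because it holds the most kinds of the searched motifs. Its TGACG and CArG box therefore cannot be set against the shares of all windows, which were not picked. The windows describe letters only, and the arrays did not measure binding at them.

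All 10 genes were lower in basal forebrain than in cortex, in each of the 3 DKO mice and each of the 3 Con mice. Of the 23788 genes well above background on every array, 27.7% were lower in 6 of 6 mice. The members' median difference was -0.98 in DKO mice and -0.96 in Con mice, where the median of all genes was -0.04 and -0.09. In a limma fit that ignores which arrays share a mouse, 5 of 10 genes passed as lower in DKO mice, where 19.8% of all 26959 genes passed as lower, and 5 of 10 in Con mice, where 30.0% did. The same 5 genes passed the test in both genotypes: Junb, Egr1, Arc, Ier2 and Dusp1. With the mouse as a block, which sets each basal forebrain against the cortex of the same animal, 10 of 10 passed as lower in each genotype, where 19.5% of all genes passed as lower in DKO mice and 29.4% in Con mice. Without the block the count in Con mice was 3 without Con mouse 1 and 2 without Con mouse 3. The number of all genes passing also moved when 1 mouse was left out. These 2 counts can therefore not be set against the 30.0%. In Con mice the 10 passing with mice as a block rest on arrays whose region and slide coincide. Of all passing genes 48.3% were higher in basal forebrain in DKO mice and 38.0% in Con mice. With arrays centred on their median these shares were 22.6% and 27.6%, and the median of all genes moved to -0.33 and -0.21. There 8 of 10 members passed in DKO mice and 6 in Con mice. Since the genes as a whole moved towards lower, these counts cannot be set against the 19.8% and 30.0% above. Background correction by normexp gave 29.9% of passing genes as higher in Con mice.

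In DKO mice the largest regional difference was that of Arc, whose product sits at active synapses and promotes removal of AMPA receptors. Its probe lies at chr15:74499597-74499656 (mm9, as are all probe positions here). Arc read 3.22, 3.08 and 3.95 in the basal forebrain of DKO mice 1, 2 and 3, against 4.88, 4.80 and 5.73 in their cortex. In Con mice it read 3.84, 2.87 and 4.20 in basal forebrain against 4.94, 4.04 and 5.61 in cortex. The DKO regions did not overlap, whereas the highest Con basal forebrain stood above the lowest Con cortex. Within a mouse the difference was nearly constant in DKO animals, at -1.66, -1.73 and -1.78, and it was -1.10, -1.17 and -1.42 in Con animals. The fitted difference was -1.72 in DKO mice, a 3.30-fold lower level (SE 0.42, limma adjusted p = 0.00724, or 4.27e-06 with mice as a block), and -1.23 in Con mice (adjusted p = 0.0310, or 2.41e-05 with mice as a block). The call in Con mice without the block was lost without Con mouse 1 (adjusted p = 0.112) or Con mouse 3 (0.0634) and with eBayes without its trend (0.0520).

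Ier2, which encodes a small short-lived nuclear protein, behaved alike. Its probe at chr8:87185211-87185245 read -0.90, -1.46 and -0.90 in DKO basal forebrain against 0.53, 0.07 and 1.09 in DKO cortex. It read -0.74, -1.67 and -1.0 in Con basal forebrain against 0.50, 0.01 and 0.30 in Con cortex. Every basal forebrain array was below every cortex array. The difference was -1.65 in DKO mice, 3.14-fold lower (SE 0.28, limma adjusted p = 7.32e-04), and -1.41 in Con mice (adjusted p = 0.00186). By the mean of its 2 probes, the dimmer of which is described below, it was -0.71 in DKO mice and did not pass (adjusted p = 0.0553).

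Dusp1, the phosphatase that switches off MAP kinases and is itself induced by them and by glucocorticoids, was measured at chr17:26642624-26642683. It read 2.16, 1.94 and 2.50 in DKO basal forebrain against 3.19, 3.26 and 4.09 in DKO cortex. It read 2.73, 1.67 and 2.33 in Con basal forebrain against 3.62, 2.75 and 3.35 in Con cortex. In both genotypes every basal forebrain array of that genotype was below every cortex array. The difference was -1.32 in DKO mice, 2.49-fold lower (SE 0.31, limma adjusted p = 0.00542), and -0.99 in Con mice (adjusted p = 0.0191, or 0.0793 without Con mouse 3).

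Fos, Fosb and Junb encode subunits of AP-1, a dimer of a Fos and a Jun protein. Fos, the most used marker of neuronal activity, was measured at chr12:86818118-86818177. It read 1.92, 1.90 and 2.72 in DKO basal forebrain against 2.96, 2.25 and 3.46 in DKO cortex, and 2.69, 1.17 and 2.73 in Con basal forebrain against 3.08, 2.24 and 3.02 in Con cortex. The regions overlapped in both genotypes, and each mouse was lower in basal forebrain, with differences of -1.04, -0.35 and -0.74 in DKO mice 1, 2 and 3. The difference was -0.71 in DKO mice (SE 0.42, limma adjusted p = 0.209) and -0.58 in Con mice (adjusted p = 0.271), and with mice as a block the adjusted p was 0.00991 and 0.0195.

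Fosb, whose long-lived splice form accumulates with repeated stimulation, was measured at chr7:19888168-19888227. It read -0.54, 0.15 and 0.25 in DKO basal forebrain against 0.15, 0.18 and 1.18 in DKO cortex, and 0.23, -0.62 and 0.87 in Con basal forebrain against 0.74, 0.18 and 1.28 in Con cortex. The regions overlapped in both genotypes. The difference was the smallest among the members in DKO mice, at -0.55 (SE 0.40, limma adjusted p = 0.301, or 0.0262 with mice as a block), and DKO mouse 2 showed next to none (-0.03). In Con mice it was -0.57 (adjusted p = 0.248, or 0.0184 with mice as a block). Junb, the AP-1 subunit of the Jun family, was measured at chr8:87500843-87500902. It read 3.78, 3.49 and 4.20 in DKO basal forebrain against 4.74, 4.67 and 5.30 in DKO cortex, and 4.03, 3.31 and 3.96 in Con basal forebrain against 4.69, 4.18 and 4.57 in Con cortex. Neither genotype's regions overlapped. The difference was -1.08 in DKO mice, 2.12-fold lower (SE 0.23, limma adjusted p = 0.00365), and -0.71 in Con mice (adjusted p = 0.0255). The call in Con mice was lost in 8 of 29 alternatives, among them quantile normalization (-0.59, adjusted p = 0.0528), the mean of its probes (-0.57, adjusted p = 0.0815) and leaving out any 1 Con mouse.

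Egr1 and Egr2 encode zinc-finger factors of the early growth response family. Egr1, known also as Zif268, was measured at chr18:35024395-35024454. It read 3.70, 4.03 and 4.12 in DKO basal forebrain against 4.74, 4.60 and 5.33 in DKO cortex, and 4.13, 3.59 and 4.69 in Con basal forebrain against 5.32, 5.05 and 5.59 in Con cortex. Within each genotype the regions did not overlap. The difference was -0.94 in DKO mice (SE 0.26, limma adjusted p = 0.0124) and -1.18 in Con mice (adjusted p = 0.00309). In DKO mice the call was lost without DKO mouse 1 (adjusted p = 0.0582) or DKO mouse 3 (0.0715). Egr2 was measured at chr10:67004758-67004817 and varied most from mouse to mouse. It read 0.69, 1.09 and 2.02 in DKO basal forebrain against 1.97, 1.59 and 3.10 in DKO cortex, and 1.77, 0.36 and 2.32 in Con basal forebrain against 2.68, 2.04 and 2.98 in Con cortex. The regions overlapped in both genotypes. The difference was -0.95 in DKO mice (SE 0.51, limma adjusted p = 0.163, or 0.00588 with mice as a block) and -1.09 in Con mice (adjusted p = 0.0973, or 0.00304 with mice as a block).

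Npas4 encodes a neuron-specific factor that responds to calcium entry and hardly to growth factors, and it was measured at chr19:4984356-4984415. It read 1.43, 0.78 and 1.63 in DKO basal forebrain against 2.82, 1.15 and 2.64 in DKO cortex, and 1.02, 1.18 and 0.77 in Con basal forebrain against 2.09, 2.18 and 1.50 in Con cortex. Only the Con regions did not overlap. The difference was -0.93 in DKO mice (SE 0.37, limma adjusted p = 0.0670, or 0.00297 with mice as a block) and -0.93 in Con mice (adjusted p = 0.0547, or 0.00273 with mice as a block). Nr4a1 encodes the orphan nuclear receptor Nur77 and was measured at chr15:101105071-101105130. It read 3.64, 4.10 and 4.98 in DKO basal forebrain against 4.74, 5.23 and 5.76 in DKO cortex, and 4.59, 3.46 and 4.93 in Con basal forebrain against 5.06, 4.01 and 5.06 in Con cortex. The regions overlapped in both genotypes, although every mouse was lower in basal forebrain. The difference was -1.01 in DKO mice (SE 0.43, limma adjusted p = 0.0875, or 1.96e-04 with mice as a block) and -0.38 in Con mice (adjusted p = 0.481, or 0.0173 with mice as a block).

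**Figure D1:**
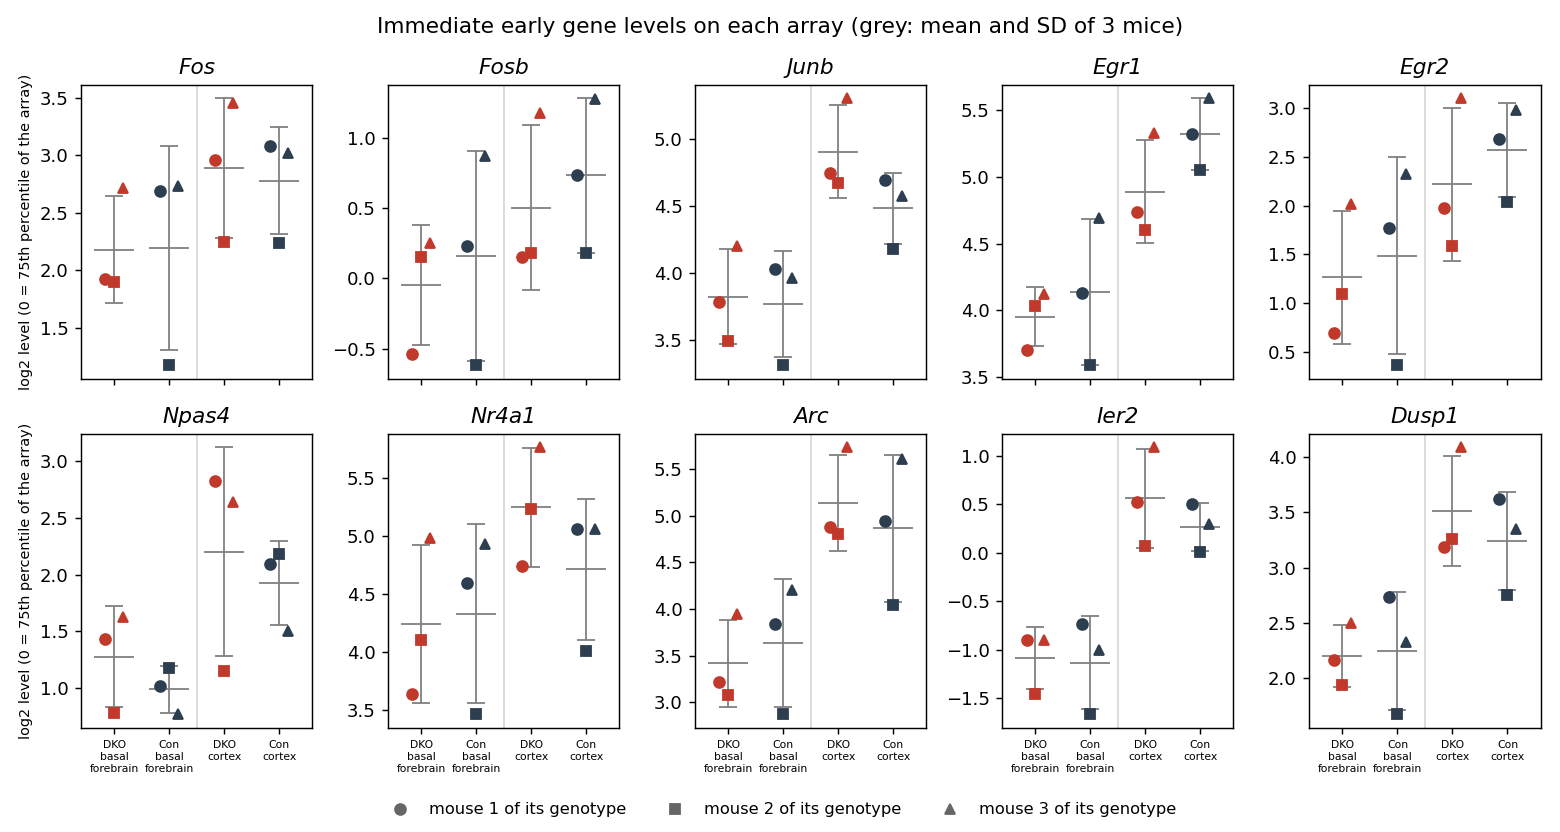
Level of each of the 10 genes on the 12 arrays, as log2 intensity minus the array's 75th percentile, by group (DKO red, Con dark blue), with mice 1, 2 and 3 as a circle, square and triangle and the group mean as a line. For all 10 genes both cortex means stand above both basal forebrain means, and DKO and Con overlap within each region.

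**Figure D2:**
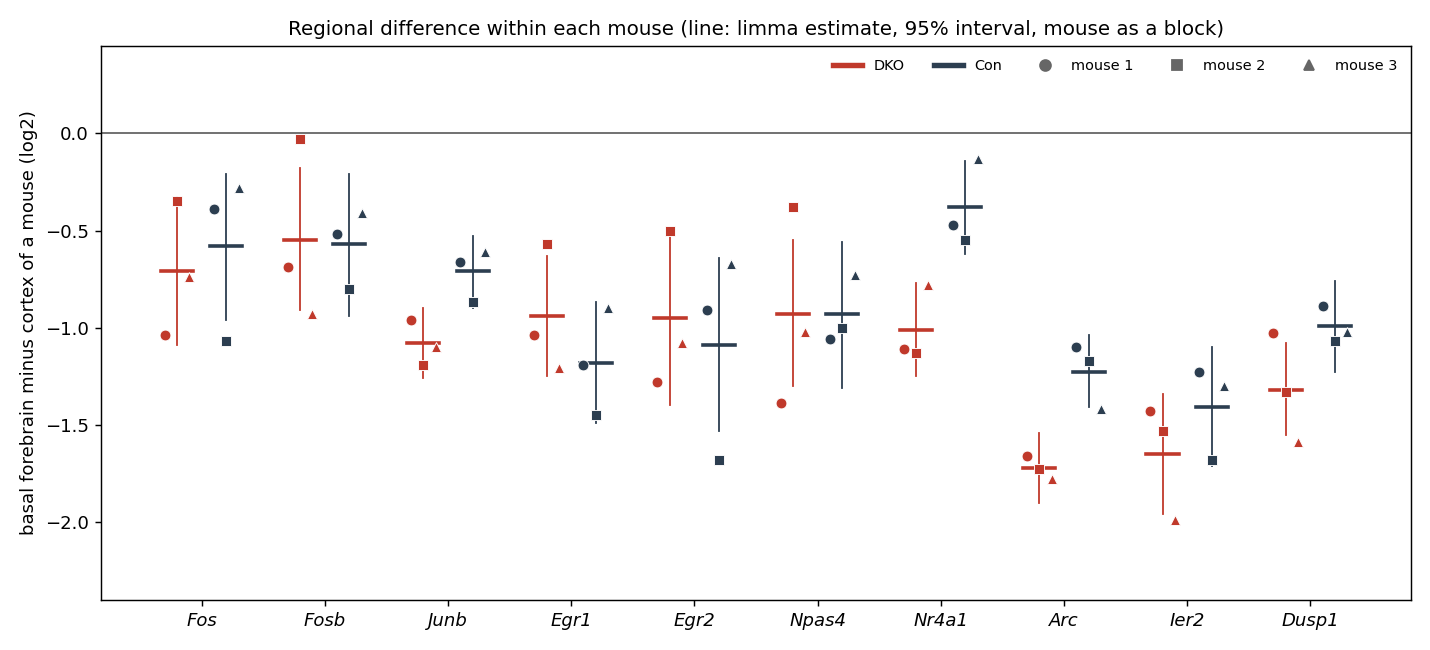
Basal forebrain minus cortex within each mouse (log2), per gene, for DKO mice (red) and Con mice (dark blue), with the limma estimate and its 95% interval from the fit with mice as a block. Every point lies below 0, from -0.03 for Fosb in DKO mouse 2 to -1.99 for Ier2 in DKO mouse 3.

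Cell makeup and slide moved with region. Of 6 markers of excitatory cortical neurons, 5 passed as lower in basal forebrain in each genotype, with a median difference of -2.54 in DKO mice and -2.13 in Con mice. The mean level of these markers ranged from -1.44 to -0.71 in DKO basal forebrain against 1.48 to 1.79 in DKO cortex, and from -1.40 to -0.30 in Con basal forebrain against 1.49 to 1.65 in Con cortex. All 4 choroid plexus markers were lower in basal forebrain, with medians of -6.05 in DKO mice and -5.50 in Con mice. The mean level of the 3 among them well above background on all 12 arrays was -3.21 to -2.74 in DKO basal forebrain against 2.42 to 3.08 in DKO cortex, and -3.91 to -1.57 in Con basal forebrain against 1.91 to 2.93 in Con cortex. The part of these cells in the regional difference was not tested. On slide 1 alone, which holds 3 DKO basal forebrain arrays and the cortex of DKO mice 1 and 2, all 10 genes were lower in basal forebrain, from -0.21 for Fosb to -1.42 for Arc, and the same 5 passed. With slide as a block 4 passed in DKO mice and 0 in Con mice, where 2857 of 26959 genes passed in either direction. There the slide effect rests on DKO mouse 3 alone, and Fos, Fosb, Egr2 and Nr4a1 turned positive in Con mice, at 0.27, 0.44, 0.24 and 0.39. With both mouse and slide as blocks 9 of 10 passed in DKO mice (Fosb, -0.36, adjusted p = 0.143, did not). In Con mice 1 passed in that fit (Arc, -1.14, adjusted p = 0.0309), where 605 of 26959 genes passed in either direction. Shares of all genes for the DKO counts on slide 1 and with slide as a block are not given here. Without DKO mice 1 and 3 only DKO mouse 2 remained, whose differences ran from -0.03 for Fosb to -1.73 for Arc.

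The levels differed between mice of a genotype, and the genes moved together. The within-group SD, pooled over the 4 groups, had a median of 0.57 over the 10 genes, against 0.16 over the 23788 genes well above background on every array. It ran from 0.34 for Junb to 0.76 for Egr2, with Nr4a1 at 0.65, Fos at 0.63 and Arc at 0.63. Con mouse 2 was the lowest Con mouse in both regions for 9 of 10 genes, Npas4 being the exception, where 15.9% of all genes placed it lowest in both. DKO mouse 3 was the highest DKO mouse in both regions for 8 of 10, where 10.1% of all genes placed it there. Averaged over the 10 genes, DKO mice 1, 2 and 3 deviated from their group mean by -0.21, -0.21 and 0.42 in basal forebrain and by -0.14, -0.43 and 0.56 in cortex. Con mice deviated by 0.25, -0.65 and 0.40 in basal forebrain and by 0.18, -0.42 and 0.24 in cortex. A mouse with high levels in one region thus had them in the other, with the same sign in 6 of 6 mice. Deviations of a group balance out around its mean, so the signs of its mice are not independent. The share of all genes with the same sign in every mouse was not counted.

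The deviations from the group means were then correlated between genes over the 12 arrays. The arrays come from 6 mice, pairs of arrays share a mouse, and the values are descriptive. Among the 45 pairs of members the median Pearson r was 0.84, and 27 of the 45 reached 0.8, as 2.66% of pairs of all genes did, whose median was 0.03. Fos and Egr2 followed the mean of the other 9 most closely, both with r of 0.97, and Junb (0.94), Arc (0.91), Egr1 (0.88), Dusp1 (0.88), Nr4a1 (0.86), Fosb (0.85) and Ier2 (0.84) came after. Npas4 did not follow, with r of 0.11. Its 9 pairs had a median r of 0.14, with a range of -0.14 to 0.47, whereas the 36 pairs without it ran from 0.59 to 0.98. Con mouse 2, the lowest Con mouse for every other member in both regions, had the highest Npas4 of the Con mice in both. DKO mouse 1 had the highest cortical Npas4 of all mice (2.82), with the middle values of Fos and Egr1 among DKO mice.

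**Figure D3:**
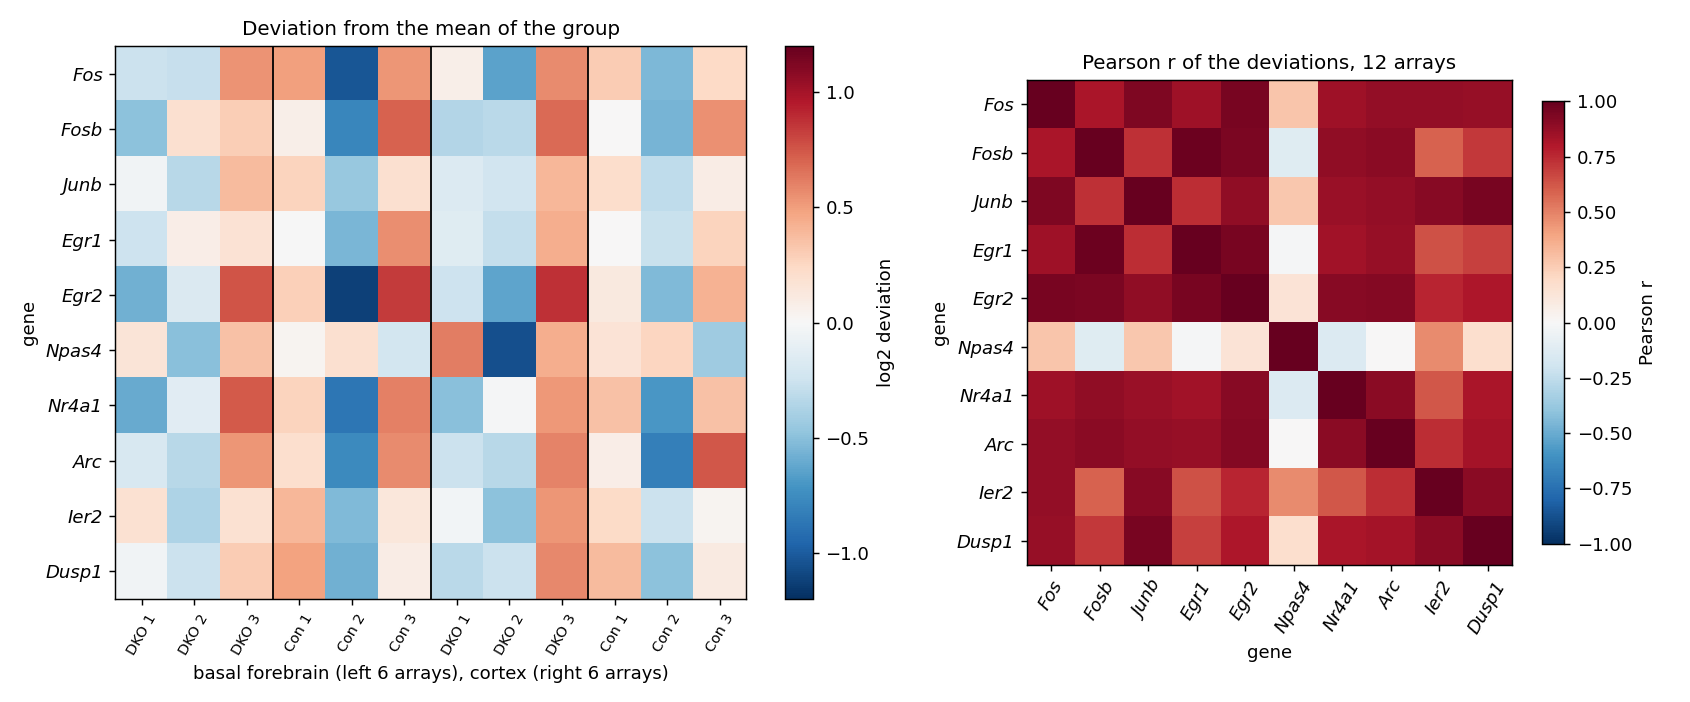
Left, deviation of each gene on each array from the mean of its group (log2), by mouse and region. Right, Pearson r of those deviations between genes over the 12 arrays, where 9 genes correlate with each other at 0.59 or more and Npas4 with none of them above 0.47.

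The 10 genes outside the list whose deviations most resembled the members' mean, among 7890 candidates, were Tmsb15l (r = 0.98), Gast and Rsl1 (0.95 each), Cenpi (0.94), Prune2, Rac3 and Gramd1c (0.93 each), Trim67 and Armcx3 (0.92 each) and 6330409D20Rik (0.91). Of further immediate early genes, Dusp6 came at rank 12 (r = 0.91) and Egr4 at rank 18 (r = 0.90). The mean deviation of 29 further immediate early genes followed that of the members with r = 0.90. That of the later effector genes listed below gave 0.58, astrocyte markers 0.59, excitatory cortical markers 0.21, glucocorticoid-induced genes -0.46 and upstream genes of the pathway -0.61.

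No member differed between genotypes past the test. Sex by Xist and Y-linked genes was mixed with genotype in each such comparison, since only DKO mice 1 and 3 read Xist. The part of sex in the differences was not tested. In basal forebrain 0 of 10 genes passed, where 0.0306% of 26102 genes did, and 0 were under an unadjusted p of 0.05, where 4.39% of genes were. The differences ran from -0.22 for Arc to 0.29 for Npas4, with a median of -0.07 where the median of all genes was 0.00, and every member's DKO and Con arrays overlapped, where those of 9.95% of genes did not. For Fos the difference was -0.01 (SE 0.44, limma adjusted p = 0.999), with DKO mice at 1.92, 1.90 and 2.72 and Con mice at 2.69, 1.17 and 2.73. The 95% interval of the Egr2 difference was -1.48 to 1.06. The median SE was 0.32 over the members and 0.14 over all genes. Differences inside such an interval remain compatible with these values of 3 mice a group.

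In cortex 0 of 10 genes passed, where 0.0116% of 25798 genes did. None was under an unadjusted p of 0.05, where 18.9% of genes were, and none had DKO and Con arrays without overlap, where 22.4% of genes did. The differences were positive for 7 members, where 41.5% of all genes were positive, and negative for 3, with a median of 0.27 where that of all genes was -0.05. Nr4a1 had the highest, 0.53 (SE 0.33, limma adjusted p = 0.365). Junb was at 0.43, with an interval of -0.01 to 0.86 (adjusted p = 0.267), its DKO levels of 4.74, 4.67 and 5.30 standing above Con levels of 4.69, 4.18 and 4.57 but for DKO mouse 2. Egr1 was lowest, at -0.43, with an interval of -0.89 to 0.04 (adjusted p = 0.280), and read 4.74, 4.60 and 5.33 in DKO cortex against 5.32, 5.05 and 5.59 in Con cortex.

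Genotype and slide were mixed in cortex, since only DKO mouse 3 shared slide 2 with the Con arrays. On slide 2 alone, DKO mouse 3 minus the 3 Con mice gave 0.82 for Junb (limma adjusted p = 0.333), 1.05 for Nr4a1, 0.85 for Dusp1, 0.68 for Fos and 0.01 for Egr1. All 10 members were above 0 there, Fosb (0.45), Egr1 and Egr2 (0.54) with a changed sign, and 0 passed. The DKO arm is then 1 array, of the mouse with the highest levels, and its spread is assumed to be that of the Con arrays. Without DKO mouse 3, which sets slide 1 against slide 2, Egr1 passed at -0.65 (adjusted p = 0.0109) and Egr2 at -0.78 (adjusted p = 0.0468), among 9759 passing genes. Without DKO mice 1 and 3 Egr1 passed at -0.72 (adjusted p = 0.0305), among 7742. That sets 1 DKO array on slide 1 against 3 Con arrays on slide 2, with the spread taken from the Con arrays alone.

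Over both regions, with the arrays of a mouse averaged, 0 of 10 passed, where 0.156% of 26959 genes did, and 2897 genes but no member were under an unadjusted p of 0.05. The median difference was 0.08 where that of all genes was -0.02. Junb was at 0.24 (limma adjusted p = 0.639) and Egr1 at -0.31 (adjusted p = 0.568). Markers of blood moved with genotype over the same arrays, with 5 of 5 red cell genes, 3 of 4 neutrophil genes and 3 of 4 B cell genes passing as higher in DKO mice. The mean level of the red cell genes was 3.33 to 4.88 in DKO basal forebrain against 1.73 to 2.04 in Con, and 3.19 to 4.24 in DKO cortex against 1.86 to 2.33 in Con. Their part in the members' values was not tested.

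**Figure D4:**
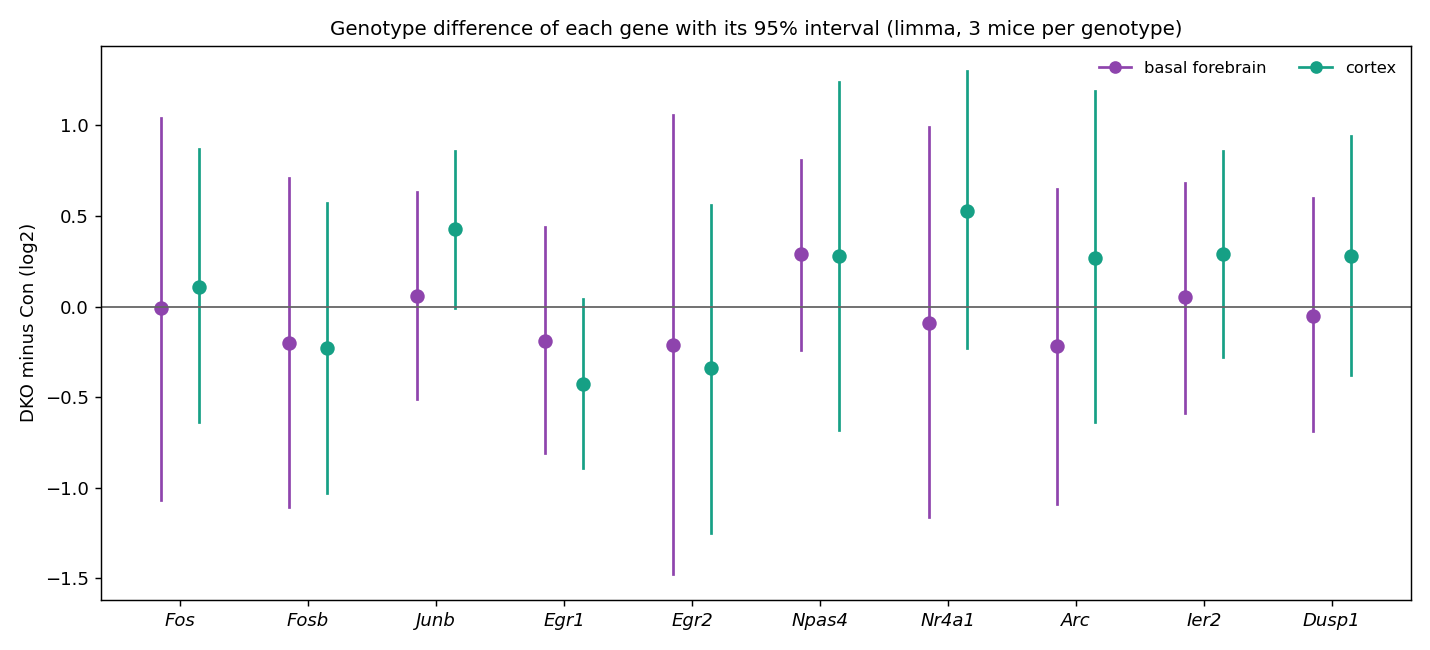
DKO minus Con difference of each gene (log2) with its 95% interval from limma, in basal forebrain (purple) and cortex (green). Every interval includes 0, and the widest is that of Egr2 in basal forebrain, -1.48 to 1.06.

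Whether the regional difference depended on genotype was tested as an interaction, which sets basal forebrain minus cortex in DKO mice against the same quantity in Con mice. No gene of the 26959 passed (0%), 8.36% were under an unadjusted p of 0.05, and no member was. With mice as a block 0 genes passed and 9.80% were under an unadjusted p of 0.05, 3 members among them. They were Nr4a1, with an interaction of -0.62 (SE 0.15), Arc, with -0.49 (SE 0.11), and Junb, with -0.37 (SE 0.11), each with a limma adjusted p of 0.504. The sign means a more negative regional difference in DKO mice. For these 3 the within-mouse differences of DKO and Con did not overlap, as for 14.2% of all genes. Nr4a1 stood at -1.11, -1.13 and -0.78 in DKO mice 1, 2 and 3 against -0.47, -0.55 and -0.13 in Con mice. Its interaction passed without DKO mouse 3 (-0.74, adjusted p = 0.0447, among 886 passing genes), when all DKO cortex arrays are on slide 1 and all Con cortex arrays on slide 2, and it was -0.39 and did not pass with both mouse and slide as blocks. Junb stood at -0.96, -1.19 and -1.10 in DKO mice against -0.66, -0.87 and -0.61 in Con mice. The slide of the cortex array differed between most DKO and all Con mice in this comparison. Sex by Xist and Y-linked genes differed between DKO mice 1 and 3 and all Con mice as well.

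Other probes of the same genes did not all repeat these values. A second Junb probe, chr8:87501881-87501940, was dimmer and well above background on all 12 arrays. It read -1.73, -1.84 and -1.85 in DKO cortex against -2.26, -2.95 and -2.38 in Con cortex, with no overlap, where 22.4% of genes had none. Its difference was 0.72 (SE 0.18, limma adjusted p = 0.249 over 39408 probes, of which 0.0102% passed). By this probe the regional difference passed in DKO mice (-0.86, adjusted p = 0.0163) and not in Con mice (-0.12, adjusted p = 0.699). The other Ier2 probe, chr8:87183623-87183681, which carries the symbol in the files, was well above background on 11 of 12 arrays but did not match a RefSeq transcript here, gave -0.61 for DKO minus Con in cortex (adjusted p = 0.274). Its regional difference was 0.24 in DKO mice (adjusted p = 0.582) and -0.85 in Con mice (adjusted p = 0.0408), so the 3.14-fold value in DKO mice rests on the brighter probe. The second Fosb probe, chr7:19890146-19890205, was well above background on 6 of 12 arrays, and the remaining Junb probe, chr8:87496635-87496694, on 0 of 12.

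In a list of 30 further immediate early genes more passed as lower than as higher in basal forebrain. In DKO mice 12 passed as lower in basal forebrain and 0 as higher, and in Con mice 11 as lower and 3 as higher, where 19.8% of all genes passed as lower in DKO mice and 30.0% in Con mice. The median difference was -0.45 in DKO mice and -0.40 in Con mice. Egr3, of the same zinc-finger family as Egr1, was at -1.41 in DKO mice (limma adjusted p = 5.62e-06) and -1.45 in Con mice. Ier5 was at -1.52 and -1.51, Klf10 at -1.57 and -1.57, and Fbxo33 at -0.55 and -0.45, in DKO and Con mice. Dusp6, a phosphatase of MAP kinases, was at -1.22 in DKO mice and -1.36 in Con mice. Nr4a2, an orphan receptor related to Nr4a1, was at -2.61 in DKO mice (adjusted p = 9.22e-04), and Dusp5 was at -1.55 in Con mice (adjusted p = 0.00612). The 3 genes higher in Con basal forebrain, named after their values were seen, were Klf4 (0.73), Amigo3 (1.16) and Atf3 (1.50), and Amigo3 stood at -0.01 after normexp background correction. With slide as a block 11 passed as lower in DKO mice and 2 in Con mice, where fewer of all genes passed too. The share of all genes in DKO mice in that fit is not given here. Without DKO mice 1 and 3 only DKO mouse 2 remained, and no count is given.

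Between genotypes 0 of these 30 genes passed in basal forebrain, 0 of the 29 tested in cortex and 0 of 30 over both regions. At an unadjusted p under 0.05 there were 8 in basal forebrain (5 lower in DKO mice, 3 higher), 2 in cortex and 5 over both regions, where 4.39% of all genes were in basal forebrain, 18.9% in cortex and 2897 of 26959 over both regions. The medians were -0.05, 0.07 and 0.02. With DKO mice 1 and 3 left out, 1 DKO cortex array remained, on another slide than the Con cortex arrays, and no count is given. Klf10 was at -0.71 over both regions (SE 0.16, limma adjusted p = 0.294), with DKO and Con mice apart, as for 16.7% of all genes. Egr3 was at -0.34 over both regions (adjusted p = 0.412).

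Genes that neurons induce later, as effectors of activity, were read next. Of 12, 7 passed as lower and 2 as higher in DKO mice, and 6 as lower and 3 as higher in Con mice, with medians of -0.58 and -0.51, where 19.8% of all genes passed as lower in DKO mice and 30.0% in Con mice. The 6 lower in Con mice became 3 with slide as a block and 0 with both mouse and slide. Fewer of all genes passed in these fits too. Without DKO mice 1 and 3 only DKO mouse 2 remained, and no count is given. Homer1, whose short form is induced at synapses, was at -0.88 in DKO mice and -0.85 in Con mice. Nrn1, a growth-promoting surface protein, was at -2.10 in DKO mice and -2.44 in Con mice. Crem, a repressor of cAMP-driven transcription, was at -0.90 in DKO mice and -0.96 in Con mice. Ptgs2, the inducible cyclooxygenase, was at -1.76 in DKO mice, and the neurotrophin Bdnf was at -1.92 in Con mice. Scg2 (0.70 in DKO mice, 0.73 in Con mice) and Rgs2 (0.55 in DKO mice, 0.71 in Con mice) were higher in basal forebrain. In DKO mice neither passed when arrays were centred on their median.

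Inhba, the activin A subunit, was the 1 gene of the 12 that passed between genotypes. Over both regions it averaged 0.53 in DKO mice against 1.08 in Con mice, a difference of -0.55 (SE 0.08, limma adjusted p = 0.0494). It did not pass under 15 of 17 alternatives, where the adjusted p reached 0.290 and the difference ran from -0.62 to -0.51. In basal forebrain it was at -0.80 (adjusted p = 0.148). In cortex 0 of the 12 passed, 5 were under an unadjusted p of 0.05 (4 lower in DKO mice, 1 higher) where 18.9% of all genes were, and Nptx2, a secreted pentraxin that clusters AMPA receptors, was at -0.52 (adjusted p = 0.232). With DKO mice 1 and 3 left out, 1 DKO cortex array remained, on another slide than the Con cortex arrays, and no count is given.

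Upstream of the members, 17 kinases, coactivators and transcription factors were measured. In DKO mice 7 passed as lower in basal forebrain and 0 as higher, and in Con mice 9 as lower and 1 as higher, with medians of -0.25 and -0.19, beside the same shares of all genes, 19.8% and 30.0%, passing as lower. The 9 lower in Con mice became 2 with slide as a block and 1 with both mouse and slide. Fewer of all genes passed in these fits too. Without DKO mice 1 and 3 only DKO mouse 2 remained, and no count is given. Mef2c, a factor of activity-driven transcription in cortical neurons, was at -1.66 in DKO mice (limma adjusted p = 2.61e-07) and -1.57 in Con mice. Camk2a, the abundant forebrain calmodulin-dependent kinase, was at -1.51 in DKO mice and -1.42 in Con mice. Mef2d (-0.40 in DKO mice, -0.36 in Con mice) and the calcineurin subunit Ppp3ca (-0.46 in DKO mice, -0.51 in Con mice) differed less. Mrtfb was at -0.33 in DKO mice by its brightest probe, but at 0.50 by the mean of its probes. Prkaca, a catalytic subunit of protein kinase A, was at -0.25 in Con mice. Between genotypes 0 of 17 passed in either region, with 0 under an unadjusted p of 0.05 in basal forebrain, where 4.39% of all genes were, and 5 in cortex, where 18.9% were. With DKO mice 1 and 3 left out, 1 DKO cortex array remained, on another slide than the Con cortex arrays, and no count is given. The smallest p among the 17 in cortex belonged to Crtc1 (0.28, adjusted p = 0.261).

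Glucocorticoid-induced genes were read beside the members because stress hormones also act on Dusp1. Of 8, Zbtb16 alone passed between regions, at -2.12 in DKO mice and -1.76 in Con mice. Between genotypes 0 of 8 passed, with 2 under an unadjusted p of 0.05 in basal forebrain, where 4.39% of all genes were, and 3 in cortex, where 18.9% were, all higher in DKO mice. With DKO mice 1 and 3 left out, 1 DKO cortex array remained, on another slide than the Con cortex arrays, and no count is given. Sult1a1 was at 0.98 in basal forebrain (limma adjusted p = 0.973) and 1.47 in cortex (adjusted p = 0.261). Mt1 was at 0.36 in cortex (adjusted p = 0.104).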

How the data were processed

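Total RNA of 6 mice, 2 regions each, was hybridised to 12 Agilent mouse arrays in 1 colour. Per the file headers, Agilent Feature Extraction 10.7.1.1 wrote a processed intensity per spot, already background-subtracted and not scaled between arrays. The deposited table repeats these intensities (99.998% within 0.01 log2), and the authors' normalized log2 values in it, with identical sorted values on all arrays, served as an alternative. Its 12 flag columns were not used here. No spot was saturated (0), and the number of arrays limits precision.

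Spots were averaged per probe (59305 spots, 56605 probes, 37 left out because every spot was marked as an outlier on an array, 56568 analysed). RefSeq transcripts named 32972 probes, and the other 23596 are called as the files call them. Log2 intensity minus the 75th percentile of each array was tested on the brightest probe of a gene, if well above background on all 3 arrays of 1 group or more. R 4.3.3, limma 3.58.1 (lmFit, eBayes with trend), version 1.17.8 of data.table, Python 3.11.15 and matplotlib 3.10.9 were used. P-values were adjusted over all genes by Benjamini-Hochberg, with 0.05 as threshold. Each region's genotypes were fitted on its 6 arrays, both regions on the mean of each mouse, and regions and interaction on all 12.

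Basal forebrain and cortex with the same number come from the same mouse by the labels, so fits with the mouse as a block are given beside region results. Their deviations from the group means over all genes correlated at -0.01, 0.15 and -0.09 in DKO mice and 0.21, 0.31 and 0.39 in Con mice. The cortex that correlated best with the basal forebrain of DKO mice 1, 2 and 3 was number 3, 2 and 2. In Con mice it was that of the same number each time. The fits within a region, between regions and for the interaction were tested on simulated data, and the promoter search was not. The members, gene lists and tests were chosen with earlier results of these data known. Genes named are the members, up to 6 passing genes of each list by smallest p (else the 2 of smallest p), the 10 most like the members and Psen2. Xist, Egr4, Klf4, Amigo3, Atf3, Nr4a3 and other genes beyond this rule were named after their values were seen. A result that this rule picks for 1 further gene is not reported here.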

Additional observations from a re-analysis of the deposited data

How the results depend on the processing

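Of 1430 values of members under alternatives, set against the fit without the replicate block, 1304 stayed on the same side of the threshold, 31 lost and 95 gained it. No value that passed in that fit changed sign, and 103 values that passed neither there nor under the alternative did. Among these, Fos, Fosb, Egr2 and Nr4a1 in Con mice, which passed as lower with the replicate block, turned positive with slide as a block. The count of passing genes between genotypes in basal forebrain was 8, and 5 with normexp, 18 with array medians, 3 with no filter on dim probes, 2 with probes well above background on all arrays, 13 with each probe as its own feature, 0 with the replicate block and 0 without DKO mice 1 and 3. In cortex it was 3, and 5 with array medians, 1 with no filter, 0 with the mean of a gene's probes, 1 without the trend, 27 within slide 2, 2 with the replicate block, and 7742 with 1 member without DKO mice 1 and 3. Over both regions it was 42, and 16 with no filter, 22 with the stricter filter, 14 without the trend, 34 with the replicate block and 8 without DKO mice 1 and 3. Genes higher in DKO made up 6 of 8 calls in basal forebrain (16 of 18 with array medians) and 1 of 3 in cortex (3 of 5 with array medians, 2 of 3 with quantile normalization, 3 of 4 with the authors' values). DKO and Con mice share only a number, and the replicate block left 0 members passing between them.

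For regions, 10314 genes and 5 members passed in DKO mice and 13037 and 5 in Con mice. With each probe as its own feature 15972 and 19665 passed. In DKO mice 8 members passed with array medians, 10 with the replicate block, 10 with it and array medians, 9 with it and slide, and 0 of 3528 passing genes without DKO mice 1 and 3 (with the replicate block 5222 genes). In Con mice 0 members and 2857 genes passed with slide as a block, 10 with the replicate block, 10 with it and array medians, 1 of 605 with it and slide, and 10 with it without DKO mice 1 and 3. The interaction gave 0, then 15 without DKO mice 1 and 3 and 28 with the replicate block there.

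Leaving out 1 mouse at a time, between genotypes 0 to 24 genes passed in basal forebrain, 1 to 9759 in cortex (0 to 2 members) and 20 to 177 over both regions. In DKO mice 6358 to 10722 genes and 4 to 6 members passed between regions (6626 to 9991 and 8 to 10 with the replicate block), in Con mice 6833 to 13943 and 2 to 6 (6858 to 14766 and 7 to 10), and for the interaction 0 to 1559 and 0 (0 to 886 and 0 to 1). The combinations with the replicate block were chosen after seeing the data. By the mean of all probes the regional difference reversed for Mrtfb (0.50 in DKO mice, 0.61 in Con mice) and Creb1 (0.26 in DKO mice, 0.42 in Con mice), Amigo3 reversed in Con mice with normexp (-0.01), and Nr4a3 with the replicate block and slide (0.07). The causes were not tested.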
